A study of Homo sapiens with 44 samples.

Results

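The CHP134 response to JMJD6 shRNA-1 was read from 16 Affymetrix arrays, chosen by hairpin and repeat letter and not by any measured value, of 28 distinct arrays of this cell line and 40 distinct arrays in the series. CHP134 is a neuroblastoma cell line with an amplified MYCN gene. The 4 groups were shRNA-1 cells given doxycycline (DOX), shRNA-1 cells given vehicle, SCR control shRNA cells given DOX and SCR control shRNA cells given vehicle, each in repeats A, B, E and F. DOX was given at 2 µg/ml for 40 h and switches on the hairpin. Both lines were made with the lentiviral FH1tUTG construct, which carries GFP beside the DOX-inducible hairpin, and were sorted for high GFP, so each line was a sorted population and the sources used here do not call it a clone. The control cells carried a scrambled hairpin under the same switch, so that DOX, the construct and hairpin expression were shared by both lines. Control repeats A and B also stand in the table as copies that differed from the originals by 0, and each was counted as 1 array. The study describes its microarray experiments as repeated, without saying what was new in each repeat, such as the culture or the RNA. The p-values cover the spread among these arrays, which may in part be technical.

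JMJD6 is a jumonji-domain oxygenase of the nucleus whose gene lies on the long arm of chromosome 17, a region often gained in neuroblastoma. It hydroxylates lysines in splicing factors. MYCN and the E2F factors drive the cell cycle in this tumour, E2F factors by switching on genes for DNA replication, and tumour cells that leave the cycle can take on traits of sympathetic neurons.

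Values are log2 intensities as deposited, so a difference of 1 is a doubling. The shRNA-1 response was DOX minus vehicle in shRNA-1 cells, minus DOX minus vehicle in control shRNA cells of the same letter. A transcript cluster, the array's probe set for a gene, was called when its adjusted p was under 0.05 in limma over 21448 clusters. Array medians lay between 6.097 and 6.165, and between 75.8% and 80.5% of the clusters exceeded a background set at the 95th percentile of the array's negative controls. Of 11 adrenergic identity markers, such as HAND2, GATA3, DBH and TH, 9 had a named cluster, and their mean levels of 5.05 to 12.4 were all above that background. The highest was MYCN (group means 12.27 to 12.56), which is on this list and is amplified in this line. Of 33 markers of other cell types, 29 had a named cluster, with mean levels of 2.44 to 8.18. Of these, 8 were below background on average, the rest were not, and none was called. The mean level of these 29 over a single array was 4.84 to 5.38 in shRNA-1 DOX cells, 4.99 to 5.32 in shRNA-1 vehicle cells, 4.91 to 5.26 in control DOX cells and 4.88 to 5.31 in control vehicle cells.

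JMJD6 itself was examined first. Its level was 7.02, 6.77, 7.08 and 7.16 in shRNA-1 cells given DOX (repeats A, B, E and F), against 7.94, 7.70, 7.63 and 7.73 in shRNA-1 cells given vehicle. Control shRNA cells had 8.06, 7.85, 7.76 and 7.63 with DOX, against 8.16, 8.04, 7.79 and 7.65 with vehicle. The 4 arrays with the hairpin on lay below all 12 others. Within shRNA-1 cells, the log2 level of JMJD6 fell by 0.74 with DOX (SE 0.125, 1.67-fold lower, adjusted p = 0.00419 by limma) and did so in 4 of 4 repeats, whereas control cells differed by -0.09. The shRNA-1 response of JMJD6, which also carries the spread of the control arrays, was -0.82, -0.73, -0.53 and -0.55 in repeats A, B, E and F. Its fitted value of -0.65 (SE 0.177, 1.57-fold lower, n = 4 repeats) was not called (adjusted p = 0.163 by limma), and it was called when all 28 CHP134 arrays entered the fit (-0.69, adjusted p = 0.0245).

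Induction of shRNA-1 changed many clusters and DOX in control cells changed none that passed the test. In shRNA-1 cells 423 clusters rose and 444 fell with DOX (1.97% and 2.07% of all clusters tested), while in control shRNA cells 0 clusters were called by limma, 414 having an unadjusted p under 0.05. Shown as changes with DOX in both lines, the shRNA-1 values spread from left to right around a flat band of control values. Without DOX, 0 clusters were called between shRNA-1 and control cells, although 2441 had an unadjusted p under 0.05. Subtracting the control response left 6 clusters called higher and 10 called lower (0.0280% and 0.0466% of all clusters), and 2204 had an unadjusted p under 0.05. Each called cluster had the same direction in 4 of 4 repeats, which their selection by p over these same repeats makes likely. All 16 were also called for the DOX effect within shRNA-1 cells, which is itself a part of the response. Among them the control cells differed with DOX by at most 0.21. The number of calls depended on the fit and on nearly every array (0 to 54 with 1 letter or 1 array left out).

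**Figure D1:**
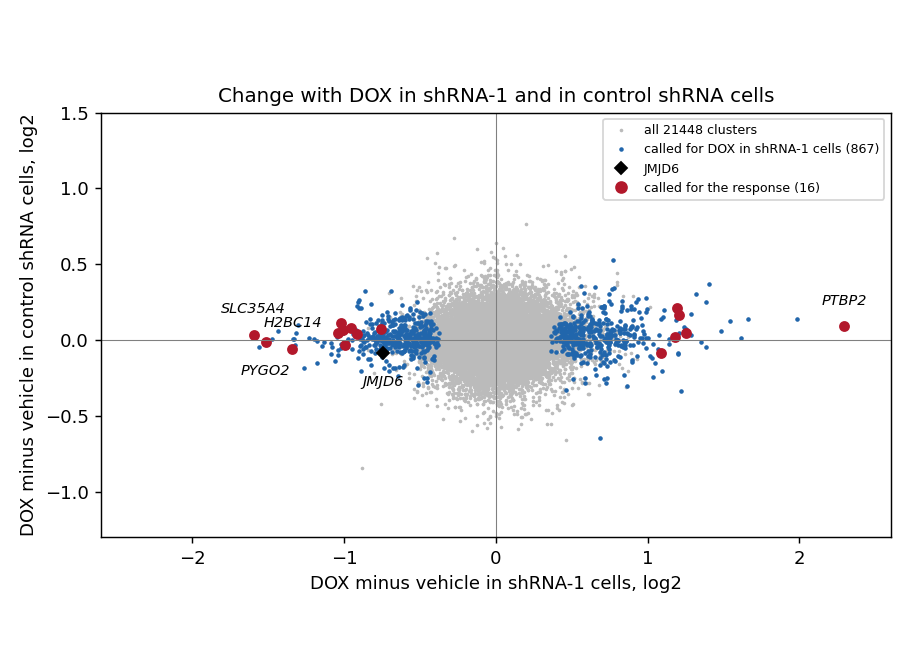
DOX minus vehicle in shRNA-1 cells (horizontal, log2) against DOX minus vehicle in control shRNA cells (vertical, log2), each a mean over 4 repeats, for 21448 clusters. The 16 clusters called for the response lie far from 0 on the horizontal axis and within 0.21 of 0 on the vertical axis, with PTBP2 farthest right at 2.30.

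PTBP2 had the largest change. It encodes the neuronal polypyrimidine tract binding protein, a repressor of splicing that is made in developing neurons. PTBP2 was 8.81, 9.03, 7.97 and 7.83 in shRNA-1 cells given DOX, against 6.30, 6.34, 5.79 and 6.02 in shRNA-1 cells given vehicle. In control cells it was 6.19, 6.72, 6.40 and 6.09 with DOX, against 6.40, 6.57, 5.89 and 6.18 with vehicle. The DOX-treated shRNA-1 arrays stood above all 12 others, and repeats A and B were higher than E and F. The response was 2.72, 2.54, 1.67 and 1.89 in repeats A, B, E and F, with a fitted value of 2.20 (SE 0.229, 4.61-fold higher, adjusted p = 0.00162 by limma). Of the 16 called genes, PTBP2 was the only gene called with every single array left out in turn (adjusted p 0.000604 to 0.0100). With a whole letter left out it was called without E or F and missed the threshold without A or B (adjusted p at most 0.154).

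The other 5 genes that rose were YPEL5, RUFY3, MAP3K13, SGIP1 and LINGO2. YPEL5, a yippee-family protein of the CTLH ubiquitin ligase, changed by a like amount in all repeats. Its level was 8.71, 8.85, 8.80 and 8.86 in shRNA-1 DOX cells, against 7.41, 7.58, 7.68 and 7.82 in shRNA-1 vehicle cells, 7.80, 7.57, 7.87 and 7.91 in control DOX cells and 7.54, 7.62, 7.87 and 8.03 in control vehicle cells. The induced arrays did not overlap the others, and the response was 1.16 (SE 0.150, 2.24-fold higher, adjusted p = 0.0131). RUFY3, an adaptor that works in axons, rose by 1.17 (SE 0.182, adjusted p = 0.0308), and MAP3K13, a leucine zipper kinase upstream of JNK in injured axons, rose by 1.21 (SE 0.207, adjusted p = 0.0451). SGIP1, an endocytic adaptor of nerve terminals, rose by 1.04 (SE 0.165, adjusted p = 0.0308), and LINGO2, a leucine-rich repeat membrane protein of neurons, by 0.99 (SE 0.169, adjusted p = 0.0451). For RUFY3 and SGIP1, vehicle-treated shRNA-1 cells were lower than vehicle-treated control cells by 0.54 and 0.50, differences that were not called (adjusted p = 0.193 for each). MAP3K13 and SGIP1 had higher levels in repeats A and B than in E and F, so that their DOX and vehicle arrays overlapped across letters while the change within each letter was of one sign.

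Of the 10 genes that fell, SLC35A4, of the nucleotide sugar transporter family, changed most. It was 7.96, 8.51, 8.85 and 8.98 in shRNA-1 DOX cells, against 10.15, 10.48, 9.88 and 10.17 in shRNA-1 vehicle cells, 10.22, 10.50, 10.20 and 10.04 in control DOX cells and 10.29, 10.54, 9.97 and 10.02 in control vehicle cells. The highest induced array was below the lowest of the others, and the change was larger in repeats A and B (-2.03 on average) than in E and F (-1.24). The fitted response was -1.63 (SE 0.267, 3.10-fold lower, adjusted p = 0.0337). PYGO2, a coactivator of Wnt and beta-catenin signalling, was 6.40, 6.41, 6.53 and 6.02 in shRNA-1 DOX cells, against 8.15, 8.12, 7.58 and 7.58 in shRNA-1 vehicle cells, 8.15, 8.15, 7.28 and 7.44 in control DOX cells and 8.40, 8.21, 7.14 and 7.33 in control vehicle cells. PYGO2 fell to a like level in all 4 repeats although its level with vehicle differed between letters. Its response was -1.50 (SE 0.242, 2.84-fold lower, adjusted p = 0.0315).

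Besides H2BC14, described with the histones, 7 other genes fell. NAXD, which repairs hydrated NADH, fell by 1.13 (log2, SE 0.193, adjusted p = 0.0451), and COQ10A, a mitochondrial protein that binds coenzyme Q, fell by 1.09 (SE 0.171, adjusted p = 0.0308). ERAL1, a mitochondrial GTPase needed for the small subunit of the mitochondrial ribosome, fell by 0.95 (SE 0.165, adjusted p = 0.0466). DPM1, the catalytic subunit of dolichol phosphate mannose synthase, fell by 1.07 (SE 0.166, adjusted p = 0.0308), while REEP4, which keeps endoplasmic reticulum off chromosomes in mitosis, fell by 1.04 (SE 0.146, adjusted p = 0.0239). WASF2, which links Rac to actin branching, fell by 0.96 (SE 0.150) and MBD2, a reader of methylated CpG, by 0.83 (SE 0.132), each with an adjusted p = 0.0308. Every one of these genes had a lower value in 4 of 4 repeats, and the plot of the called genes repeat by repeat shows that no repeat crossed 0. Genes chosen by p over these repeats are likely to show this.

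**Figure D2:**
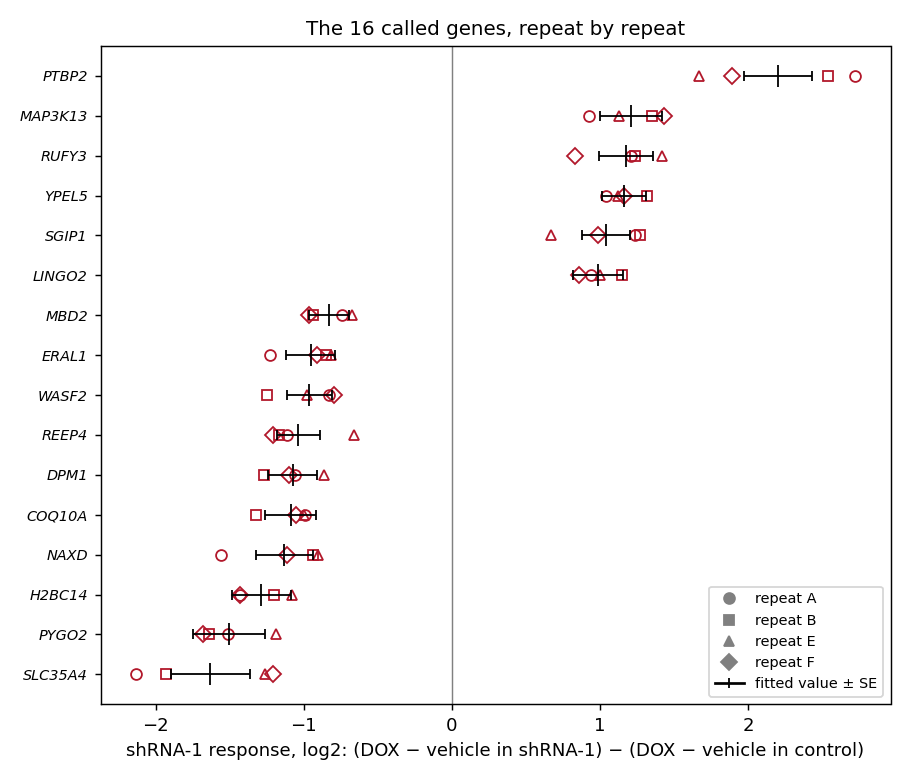
The shRNA-1 response (log2) of the 16 called genes in each of repeats A, B, E and F (red symbols), with the fitted value and its SE (black). No symbol crosses 0, and PTBP2 and SLC35A4 are set apart by larger values in A and B than in E and F.

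Just outside the threshold lay further genes with the same sign in 4 of 4 repeats, of which the 10 smallest p-values each way are described (adjusted p 0.0509 to 0.0656, absolute response 0.70 to 1.56). On the higher side these were ANGPT2, CAMK2N1, SMIM18, CTSF, ELMO1, FAIM2, CPEB2, RAB3B, SNORD52 and RCN1. CPEB2, which binds polyadenylation elements in mRNA, had the largest of these values (1.56, SE 0.298), and the response of ANGPT2, a ligand of the endothelial TEK receptor (1.33, SE 0.234), was made up of a DOX effect of 0.69 in shRNA-1 cells and of -0.65 in control cells. On the lower side were FOXM1, TBC1D24, ZBTB45, MAML1, GNA11, SLC39A1, XRCC3, PFKFB3, GNAI2 and AIRIM. PFKFB3, a driver of glycolysis, had -1.14 (SE 0.220), and the G protein alpha subunits GNAI2 and GNA11 had -1.07 (SE 0.207) and -0.86 (SE 0.163). MAML1, a coactivator of Notch, had -0.99 (SE 0.188), and XRCC3, of homologous recombination, -0.84 (SE 0.161).

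Members of the E2F family fell when the hairpin was induced. Of 13 clusters for E2F, DP and RB proteins, 4 fell with DOX in shRNA-1 cells (E2F1, E2F2, E2F3 and E2F7) and 0 rose, where 2.07% of all clusters fell and 1.97% rose. These same 4 had an unadjusted p under 0.05 for the response, where 5.51% of all clusters did on the lower side and 4.77% on the higher side, and 0 of the 13 were called for it. The median response of the 13 was -0.22, against 0.00 over all clusters. By repeat this median was -0.025, -0.311, -0.145 and -0.215 in A, B, E and F. E2F1, an activator of S phase genes, was 8.31, 8.21, 8.75 and 8.63 in shRNA-1 DOX cells, against 9.58, 9.33, 9.11 and 9.16 in shRNA-1 vehicle cells, 9.63, 9.42, 8.98 and 8.93 in control DOX cells and 9.60, 9.54, 8.77 and 8.97 in control vehicle cells. Its induced arrays lay below all 12 others, by little in repeats E and F, and its log2 level fell by 0.82 with DOX in shRNA-1 cells (SE 0.185, adjusted p = 0.0221), with a response of -0.84 (SE 0.262, adjusted p = 0.224). E2F2, also an activator, was 8.23, 8.11, 7.77 and 7.79 in shRNA-1 DOX cells, against 9.07, 8.90, 7.99 and 8.19 in shRNA-1 vehicle cells, 9.06, 9.09, 8.06 and 8.23 in control DOX cells and 9.0, 9.21, 8.18 and 8.20 in control vehicle cells. Its level differed between letters by more than it did with DOX, so the groups overlapped, and it fell by 0.56 with DOX in shRNA-1 cells (SE 0.128, adjusted p = 0.0232). The E2F2 response was -0.89, -0.67, -0.11 and -0.42 in repeats A, B, E and F, with a fitted value of -0.52 (SE 0.181, adjusted p = 0.294). E2F3, the third activator, had a response of -0.56 (SE 0.205, adjusted p = 0.342), and E2F7, a repressor that E2F itself switches on, -0.68 (SE 0.160, adjusted p = 0.104).

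MYCN and MYC were not called. MYCN was 12.63, 12.61, 12.53 and 12.47 in shRNA-1 DOX cells, against 12.39, 12.24, 12.26 and 12.19 in shRNA-1 vehicle cells, 12.31, 12.34, 12.25 and 12.31 in control DOX cells and 12.28, 12.33, 12.26 and 12.28 in control vehicle cells. The induced arrays were the highest 4 of the 16, and the response was 0.27 (SE 0.130, 1.21-fold, adjusted p = 0.502). MYC was close to background, above it on 9 of 16 arrays, with a response of 0.42 (SE 0.393, adjusted p = 0.800).

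**Figure D3:**
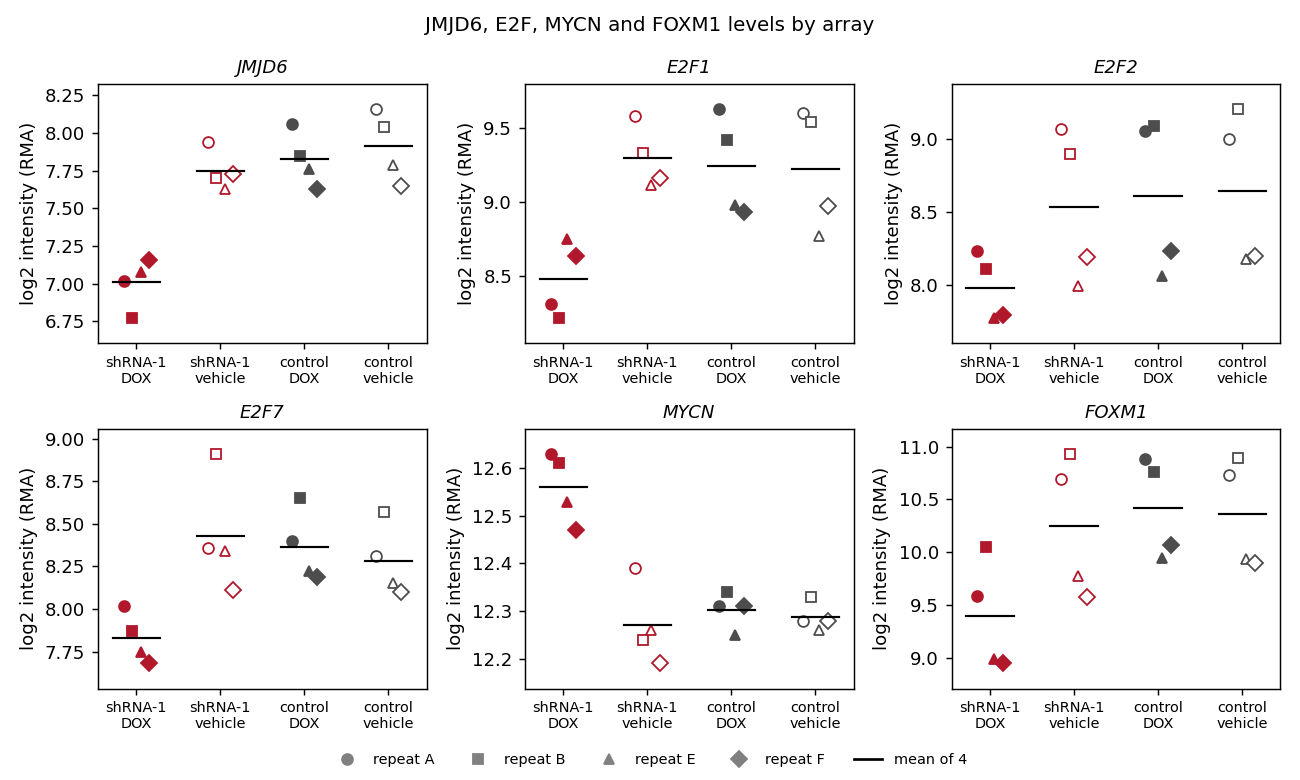
Log2 intensity of JMJD6, E2F1, E2F2, E2F7, MYCN and FOXM1 on each of 16 arrays (symbols by repeat letter, bars for the mean of 4), with shRNA-1 DOX at left. JMJD6, E2F1, E2F7 and MYCN have induced arrays apart from the 12 others, while E2F2 and FOXM1 differ more between letters than with DOX in repeats E and F.

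Genes of DNA replication that E2F factors switch on had lower values as a group. Of 59 clusters on the list, 3 had a response above 0 and 12 an unadjusted p under 0.05, all 12 lower, against 5.51% of all clusters, and 0 were called. The median response was -0.20, and it was -0.17, -0.41, -0.14 and -0.31 in repeats A, B, E and F. Within shRNA-1 cells 5 of the 59 fell with DOX and 0 rose (background 2.07% and 1.97%). These were TK1, thymidine kinase of the salvage pathway (-0.81, adjusted p = 0.00621), DSCC1, which helps load the sliding clamp for sister chromatid cohesion (-0.56, adjusted p = 0.0169), MCM5, a subunit of the replicative helicase (-0.54, adjusted p = 0.0240), POLA1, the catalytic subunit of DNA polymerase alpha (-0.46, adjusted p = 0.0307) and RFC2, a clamp loader subunit (-0.44, adjusted p = 0.0250). TK1 had 9.63, 9.48, 9.95 and 10.14 in shRNA-1 DOX cells, against 10.68, 10.43, 10.48 and 10.86 in shRNA-1 vehicle cells, 10.52, 10.47, 10.28 and 10.35 in control DOX cells and 10.32, 10.62, 10.24 and 10.33 in control vehicle cells. Its induced arrays lay below the 12 others, and TK1 lies near JMJD6 on chromosome 17.

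Promoters were read from RefSeq (GRCh38.p14), 250 bases before to 50 after each gene's start, for the E2F motifs TTTCCCGC and TTTGGCGC, the E-box CACGTG and CCAAT, on both strands; none of the 4 contains another. On the replication list, which was drawn up as E2F targets, 52 of 62 genes had a promoter entry and 20 of these held an E2F motif (38.5%), against 631 of 27305 promoters (2.31%). Of the called genes, 0 of 6 that rose and 0 of 8 that fell and had an entry held one, and the E-box was in 1 of those 8 (SLC35A4), against 7.43% of all promoters. The promoters below are shown because E2F1 and E2F2 hold TTTGGCGC, which 8 of the 52 replication promoters hold (15.4%) while 13 hold TTTCCCGC (25%), and because POLA1 and HELLS are the replication genes with the smallest p among those with either E2F motif before the start. HELLS is a chromatin remodelling helicase that had a response of -0.67 (SE 0.304, adjusted p = 0.470). Capitals mark the 4 motifs on either strand. Each run is the 250 bases before the start, 5′ to 3′ on the gene's strand, and positions count from the start site. E2F1 (chr20:33686386-33686635, minus strand) has TTTGGCGC at -20, E2F2 (chr1:23531234-23531483, minus strand) has it at -42, POLA1 (chrX:24693668-24693917, plus strand) has it on the other strand at -137, and HELLS (chr10:94545538-94545787, plus strand) has it on the other strand at -76 with TTTCCCGC at -8.
E2F1: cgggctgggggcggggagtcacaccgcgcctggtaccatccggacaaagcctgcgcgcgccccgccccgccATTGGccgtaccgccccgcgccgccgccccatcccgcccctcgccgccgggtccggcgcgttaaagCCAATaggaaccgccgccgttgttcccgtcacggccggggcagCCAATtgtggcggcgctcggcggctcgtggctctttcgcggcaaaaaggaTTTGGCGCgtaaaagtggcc
E2F2: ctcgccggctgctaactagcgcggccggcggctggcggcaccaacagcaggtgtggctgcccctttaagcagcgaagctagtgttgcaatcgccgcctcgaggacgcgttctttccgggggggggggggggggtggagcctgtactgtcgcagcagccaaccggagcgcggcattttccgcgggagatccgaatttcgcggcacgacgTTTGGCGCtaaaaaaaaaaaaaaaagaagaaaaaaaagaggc
POLA1: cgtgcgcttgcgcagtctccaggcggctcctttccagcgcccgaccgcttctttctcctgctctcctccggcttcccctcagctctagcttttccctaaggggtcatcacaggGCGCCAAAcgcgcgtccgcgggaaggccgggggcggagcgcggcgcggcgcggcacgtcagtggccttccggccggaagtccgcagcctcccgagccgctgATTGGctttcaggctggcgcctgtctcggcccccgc
HELLS: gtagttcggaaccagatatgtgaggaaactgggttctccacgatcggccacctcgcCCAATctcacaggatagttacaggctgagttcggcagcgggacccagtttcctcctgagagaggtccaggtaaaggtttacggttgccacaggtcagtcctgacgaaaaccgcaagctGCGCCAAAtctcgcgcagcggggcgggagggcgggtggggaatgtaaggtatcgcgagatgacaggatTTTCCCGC

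Histone genes used in S phase showed the lowest median of the lists described. The median over 50 clusters was -0.36, 5 were above 0, 9 had an unadjusted p under 0.05 on the lower side and 0 on the higher side (5.51% and 4.77% of all clusters), and 1, H2BC14, was called lower (0.0466% of all clusters). The median differed between repeats, at -0.47, -0.53, -0.05 and -0.35 in A, B, E and F. H2BC14, a gene for histone H2B, was 9.40, 9.66, 9.74 and 9.71 in shRNA-1 DOX cells, against 10.89, 11.23, 10.65 and 11.09 in shRNA-1 vehicle cells, 11.11, 10.93, 10.77 and 10.93 in control DOX cells and 11.17, 11.30, 10.60 and 10.88 in control vehicle cells. Its induced arrays were below all others, and the response was -1.29 (SE 0.20, 2.44-fold lower, adjusted p = 0.0308). Next were H2AC15 (-0.74), H2BC17 (-0.62) and H2AC4 (-0.62), none called (adjusted p 0.259 to 0.366). Coding sequences of these genes are alike, so probe sets of different histone genes may share signal. With vehicle, the histone list stood 0.28 higher in shRNA-1 than in control cells (median over the 50 clusters). CCAAT was in 45 of 51 histone promoters (88.2%), against 35.7% of all promoters. It was also in 42 of 65 promoters of the G2 and mitosis list (64.6%) and 30 of 52 of the replication list (57.7%). Of the called genes with an entry, 1 of 8 that fell held it, H2BC14 itself, and 0 of 6 that rose. The H2BC14 promoter (chr6:27814772-27815021, plus strand) is shown for its 5 copies, at -236, -181, -153, -118 and -77.
H2BC14: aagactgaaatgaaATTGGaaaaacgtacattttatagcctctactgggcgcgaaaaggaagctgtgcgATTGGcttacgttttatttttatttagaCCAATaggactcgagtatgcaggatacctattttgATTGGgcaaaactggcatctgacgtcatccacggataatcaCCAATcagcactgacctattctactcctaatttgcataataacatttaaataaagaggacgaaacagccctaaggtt

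Genes of G2 and mitosis were lower in 3 of 4 repeats. Of 73 clusters, 10 had a response above 0 and 19 an unadjusted p under 0.05, all lower (5.51% of all clusters were lower and 4.77% higher at that p), with a median of -0.22, and 0 were called for the response. The median was 0.00 in repeat A and -0.37, -0.18 and -0.39 in B, E and F. Within shRNA-1 cells 9 of the 73 fell with DOX and 0 rose (background 2.07% and 1.97%), among them FOXM1, the transcription factor of the G2/M programme (-0.85, adjusted p = 0.00141), CENPI (-0.67, adjusted p = 0.0105) and CENPA (-0.66, adjusted p = 0.00975) of the centromere, ESPL1, the separase (-0.60, adjusted p = 0.0169) and AURKA, a spindle pole kinase (-0.46, adjusted p = 0.0157). FOXM1 had 9.59, 10.05, 8.99 and 8.95 in shRNA-1 DOX cells, against 10.69, 10.93, 9.78 and 9.58 in shRNA-1 vehicle cells, 10.88, 10.76, 9.95 and 10.07 in control DOX cells and 10.73, 10.89, 9.94 and 9.90 in control vehicle cells. It was lower within each letter, although levels in A and B exceeded those in E and F. The response was -0.90 (SE 0.164, adjusted p = 0.0656). Of 16 clusters for G1 cyclins, CDKs and inhibitors, CDK2 fell with DOX in shRNA-1 cells (-0.54, adjusted p = 0.0253) and the inhibitor CDKN1A had a response of 0.28 (adjusted p = 0.681).

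Synaptic and vesicle genes had the highest median of the lists. Of 33 clusters, 24 had a response above 0, 12 an unadjusted p under 0.05 on the higher side and 1 on the lower side (4.77% and 5.51% of all clusters), and 0 were called. The median was 0.32, and it was 0.25, 0.43, 0.35 and 0.26 in repeats A, B, E and F. Within shRNA-1 cells 10 of the 33 rose with DOX and 0 fell (background 1.97% and 2.07%). RAB3B, a GTPase of secretory vesicles, rose by 1.24 (adjusted p = 0.00106), SYNJ1, a phosphatase that recycles synaptic vesicles, by 0.94 (adjusted p = 0.00295), SYT1, the calcium sensor of release, by 0.88 (adjusted p = 0.00303), and SNAP25, a membrane SNARE, by 0.70 (adjusted p = 0.00288). SYT1 was 11.34, 11.34, 10.36 and 10.28 in shRNA-1 DOX cells, against 10.51, 10.14, 9.61 and 9.51 in shRNA-1 vehicle cells, 10.29, 10.27, 10.02 and 9.92 in control DOX cells and 10.34, 10.45, 9.95 and 9.87 in control vehicle cells. Within each letter the induced array was the highest of 4, and the response of SYT1 was 0.91 (SE 0.198, adjusted p = 0.0787). SV2B (1.35, adjusted p = 0.0426), VAMP2 (0.97, adjusted p = 0.00814), DNM3 (0.81, adjusted p = 0.0486), RAB3A (0.75, adjusted p = 0.00526), SYT11 (0.61, adjusted p = 0.0188) and NSF (0.43, adjusted p = 0.0240) were the other members that rose.

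Other neuronal lists moved less evenly. Of 33 clusters for the neurite cytoskeleton and adhesion, the median response was 0.21, and with DOX in shRNA-1 cells DCX (0.53, adjusted p = 0.0223) and STMN2 (0.36, adjusted p = 0.0452), both microtubule regulators, rose while DPYSL3, a collapsin response mediator, fell (-0.47, adjusted p = 0.0198). Among 19 neurotrophic receptors and ligands the median response was 0.05, and 3 rose and 0 fell with DOX in shRNA-1 cells (background 1.97% and 2.07%). NTRK3, the receptor for neurotrophin-3, was 8.77, 9.35, 7.06 and 6.92 in shRNA-1 DOX cells, against 6.07, 6.90, 5.62 and 5.56 in shRNA-1 vehicle cells, 6.34, 6.38, 5.80 and 6.23 in control DOX cells and 6.39, 6.48, 5.60 and 5.74 in control vehicle cells. The change was larger in A and B (2.65) than in E and F (1.05), and the response of 1.85 (SE 0.381, adjusted p = 0.0722) was not called, whereas the rise within shRNA-1 cells was (1.99, SE 0.269, adjusted p = 0.00141). GFRA3 (1.48, adjusted p = 0.0223) and GFRA2 (0.60, adjusted p = 0.0176), coreceptors for ligands of the GDNF family, were the others. Of 27 adrenergic neuroblastoma genes, 22 had a response above 0 (median 0.12), against 10795 of all 21448 clusters. At an unadjusted p under 0.05 by limma, 3 were higher and 1 lower (4.77% and 5.51% of all clusters). With DOX in shRNA-1 cells 2 rose and 0 fell (background 1.97% and 2.07%). These were SCG2, a granin (1.07, adjusted p = 0.0188), and SLC6A2, the noradrenaline transporter (1.28, adjusted p = 0.0249). Their mean response in A and B against that in E and F was 1.45 against 0.80 for SCG2 and 1.78 against 0.44 for SLC6A2. INSM1 was lower in 4 of 4 repeats, with a response of -0.60 (SE 0.218, adjusted p = 0.333). The 9 adrenergic identity markers, MYCN among them, had a median of 0.23, with 8 above 0 and 0 called. The 28 mesenchymal genes had a median of 0.01 and 0 calls, with 0 higher and 1 lower at an unadjusted p under 0.05.

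**Figure D4:**
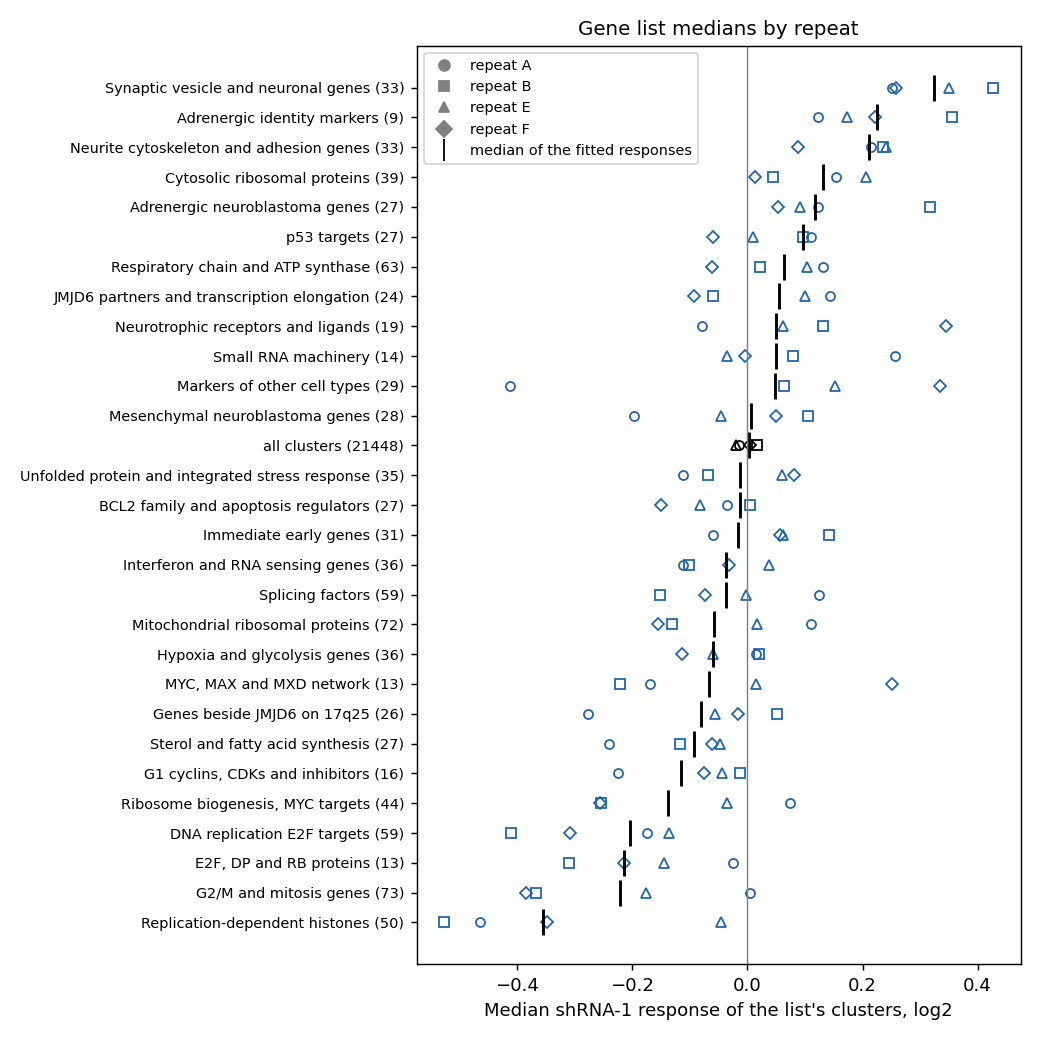
Median shRNA-1 response (log2) of each gene list in repeats A, B, E and F (symbols) and of the fitted responses (bars), with the number of clusters in brackets. Synaptic genes are at 0.32 and histones at -0.36, while all clusters lie at 0.00. Markers of other cell types range from -0.41 in A to 0.34 in F.

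Lists of growth, stress and metabolism stayed closer to 0. Ribosome biogenesis genes that MYC factors switch on had a median of -0.14 over 44 clusters. With DOX in shRNA-1 cells 3 fell and 0 rose (background 2.07% and 1.97%). These were RRP1B, a nucleolar protein (-0.76, adjusted p = 0.00305), WDR74 (-0.43, adjusted p = 0.0222) and NAT10, an RNA acetyltransferase (-0.42, adjusted p = 0.0452). RRN3 went the other way in 4 of 4 repeats, with a response of 0.56 (SE 0.189, adjusted p = 0.276). Cytosolic ribosomal proteins had a median of 0.13 with 31 of 39 clusters above 0 and 0 with an unadjusted p under 0.05 in either direction. Medians of p53 targets (0.10), apoptosis regulators (-0.01), unfolded protein and integrated stress genes (-0.01), interferon and RNA sensing genes (-0.04), hypoxia and glycolysis genes (-0.06), splicing factors (-0.04), respiratory chain genes (0.06), mitochondrial ribosomal proteins (-0.06), small RNA machinery (0.05), immediate early genes (-0.02), sterol and fatty acid synthesis genes (-0.09), JMJD6 partners and elongation factors (0.06) MYC, MAX and MXD genes (-0.07) and 17q25 genes near JMJD6 (-0.08) were all within 0.10 of 0. Single members changed within them with DOX in shRNA-1 cells. PPIF, the mitochondrial cyclophilin that opens the permeability transition pore, fell by 1.23 (adjusted p = 0.00151), SNRPB, a core protein of spliceosomal particles, by 0.88 (adjusted p = 0.00563), and AGO1, an Argonaute, by 0.65 (adjusted p = 0.00402). PDK1, which shuts pyruvate out of mitochondrial oxidation, rose by 1.32 (adjusted p = 0.000823), DDIT4, an inhibitor of mTORC1, by 0.89 (adjusted p = 0.00295), and EGR1, an immediate early factor, by 0.82 (adjusted p = 0.00601). RIGI, an RNA sensor, had 0.60 (adjusted p = 0.0208) at levels above background on 0 of 16 arrays.

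The largest DOX effects within shRNA-1 cells were taken among all clusters with a gene symbol called for that effect, after their values were seen. On the higher side they were in PTBP2 (2.30), NTRK3 (1.99), MARCHF11 (1.66), VEGFD (1.61), TSHZ2 (1.54), GFRA3 (1.48), TMEM150C (1.40) and GABBR1 (1.39). VEGFD is a lymphatic growth factor and GABBR1 a subunit of the GABA-B receptor. The largest falls were in SLC35A4 (-1.60), KCTD10 (-1.56), PYGO2 (-1.52), C18orf54 (-1.48), NPLOC4 (-1.43), H2BC14 (-1.34), PPP2R1B (-1.34) and CMTM7 (-1.33). NPLOC4 is a cofactor of the p97 segregase, KCTD10 a ubiquitin ligase adaptor and PPP2R1B a scaffold subunit of protein phosphatase 2A. In control cells the same 16 genes differed with DOX by -0.05 to 0.37, with TMEM150C the largest. Several of these changes came mainly from repeats A and B. The mean response in A and B against that in E and F was 1.90 against 0.165 for TMEM150C, 2.39 against 0.47 for GABBR1, 2.39 against 0.46 for GFRA3, 2.09 against 0.74 for TSHZ2, 2.28 against 0.91 for VEGFD and -2.15 against -0.52 for CMTM7. In repeat F, TMEM150C was 5.41 with DOX and 5.39 with vehicle. With repeats E and F alone 0 clusters were called for DOX in shRNA-1 cells by limma (2690 with an unadjusted p under 0.05).

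The response to shRNA-1 was set against that to JMJD6 shRNA-2, given at the same DOX dose and time in CHP134 cells. This comparison, DOX minus vehicle in shRNA-1 cells minus DOX minus vehicle in shRNA-2 cells, leaves the control arrays out of the difference and uses 8 arrays of each hairpin, of which repeats A and B are shared letters. Of all clusters, 54 were called higher with shRNA-1 (0.252%) and 16 lower (0.0746%). JMJD6 did not pass this test (0.33, SE 0.179, adjusted p = 0.513), with DOX effects of -0.74 for shRNA-1 and -1.08 for shRNA-2. PTBP2 and MBD2 were the only genes called for both the shRNA-1 response and this difference. The other genes called for the response changed in the same direction with shRNA-2. There, those that fell had DOX effects of -1.87 (REEP4) to -0.75 (H2BC14). Those that rose had 0.98 (SGIP1) to 1.15 (LINGO2).

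PTBP2 differed most. In shRNA-2 cells it was 5.72, 6.35, 6.06 and 6.32 with DOX (repeats A, B, C and D), against 6.33, 6.83, 6.34 and 6.68 with vehicle, so that it had a DOX effect of -0.43 there and of 2.30 with shRNA-1. The difference was 2.73 (SE 0.197, 6.64-fold, adjusted p = 1.46e-08), and with repeats A and B alone PTBP2 was the only cluster called. MBD2 had DOX effects of -0.76 with shRNA-1 and -0.15 with shRNA-2, a difference of -0.61 (SE 0.134, adjusted p = 0.0480). ZBTB45, a zinc finger protein, was 5.95, 5.89, 5.74 and 5.71 in shRNA-1 DOX cells and 7.28, 7.15, 6.32 and 6.48 in shRNA-1 vehicle cells, while shRNA-2 cells had 7.20, 7.14, 6.59 and 6.53 with DOX and 6.92, 7.05, 6.23 and 6.40 with vehicle. The difference for ZBTB45 was -1.20 (SE 0.171, adjusted p = 0.00214). APBB1, an adaptor that binds the amyloid precursor protein, had DOX effects of -0.55 with shRNA-1 and 0.51 with shRNA-2 (difference -1.05, SE 0.140, adjusted p = 0.00103), which are of opposite sign.

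For the other named differences the DOX effects of both hairpins are given. PDK1 had DOX effects of 1.32 with shRNA-1 and 0.02 with shRNA-2 (difference 1.29, adjusted p = 0.00538), and with the hairpins in the same order RCN1 had 0.70 and -0.17 (0.87, adjusted p = 0.0128), NACC1 -0.94 and 0.02 (-0.96, adjusted p = 0.0216) and GIT1 -0.87 and 0.08 (-0.95, adjusted p = 0.0495). NEUROD2, a neuronal transcription factor, had -0.42 and 0.62 (-1.03, adjusted p = 0.0493). SLC1A2, a glutamate transporter, had 0.13 with shRNA-1 and -1.35 with shRNA-2 (1.48, adjusted p = 0.00538). For shRNA-1 and shRNA-2, TES had 0.18 and -1.26, RNF182 0.06 and -1.33, and SH3BGRL2 -0.18 and -1.58, each a called difference (adjusted p 0.0131 to 0.0171). AURKA and DPYSL3 were lower with both hairpins, less with shRNA-1 (-0.46 and -0.47) than with shRNA-2 (-1.34 for each), with differences of 0.88 (adjusted p = 0.0160) and 0.88 (adjusted p = 0.0220). E2F2 fell with both hairpins (-0.56 with shRNA-1 and -1.13 with shRNA-2) and MYCN was higher with both (0.29 and 0.44). Neither passed the test of the difference (0.57, adjusted p = 0.294 for E2F2 and -0.15, adjusted p = 0.688 for MYCN).

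**Figure D5:**
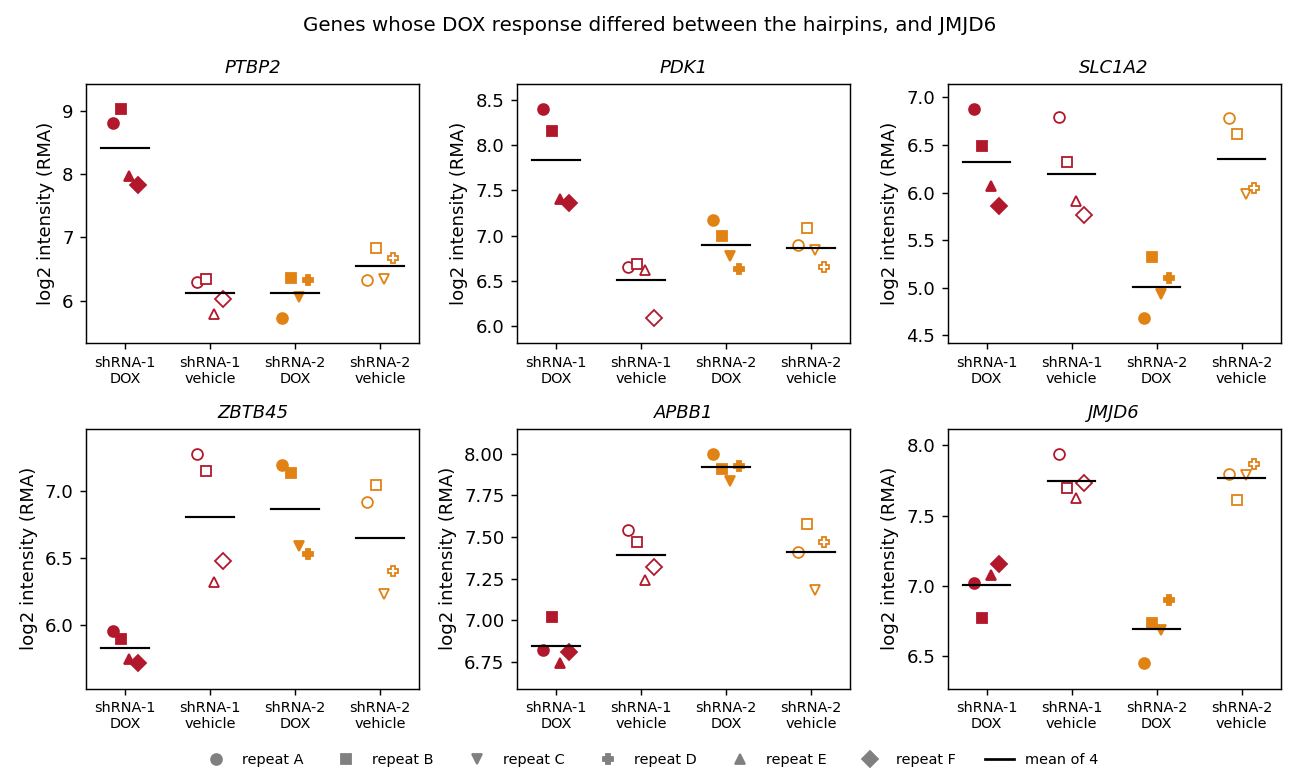
Log2 intensity of PTBP2, PDK1, SLC1A2, ZBTB45, APBB1 and JMJD6 on 16 arrays (symbols by repeat letter, bars for the mean of 4), with shRNA-1 DOX and vehicle left of shRNA-2 DOX and vehicle. PTBP2 is high only with shRNA-1 and DOX (7.83 to 9.03), while JMJD6 is low with DOX for both hairpins.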

How the data were processed

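Total RNA was hybridised to Clariom S Human arrays. The authors normalized the arrays by RMA and deposited log2 intensities per probe set, with the software version not given in the sources used here. RMA makes array distributions alike, which removes a shift common to most genes, and compresses differences near background. Of 27189 probe sets, 5741 controls were left out and 21448 clusters tested, 17709 with 1 symbol and 3739 with none. For 20 symbols there was more than 1 cluster, each kept apart. Samples were grouped by title. The series text gives the repeat letters of the hairpins the other way round, and titles were followed. The arrays' number limits the precision.

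limma (version 3.58.1, R 4.3.3) fitted group means with the repeat letter as a block on the 16 arrays (9 residual degrees of freedom), with eBayes and two-sided Benjamini-Hochberg adjustment over all clusters (threshold 0.05). The difference between hairpins used all 28 distinct CHP134 arrays. The letters were taken to pair the arrays. Deviations from group means correlated by 0.306 to 0.593 between arrays of the same letter (median 0.404, all 24 pairs over 0.1). They correlated as much between A and B or E and F, by 0.186 to 0.546 (median 0.409, all 24 pairs over 0.1). Across these sets they correlated by -0.591 to -0.209. These values do not single out the letter. The pairing cannot be told apart from 2 sets of arrays (A with B, E with F) that the labels do not name. The p-values and the counts of repeats treat the letters as separate, so they may rest on these 2 sets.

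The members, the 28 gene lists, the tests and the rule for named genes were chosen with earlier results of these data known. By rule the text names MYC, MYCN, E2F2 and JMJD6, every cluster called for the response, the 10 next each way with the same sign in 4 of 4 repeats, from each list at most 4 members, by smallest p, and the 5 largest each way for the difference between hairpins. Further list members called for DOX in shRNA-1 cells (such as MCM5, CENPA, SV2B and NAT10), HELLS and the largest DOX effects were named after their values were seen. Lists are described by counts and medians beside all clusters. Alternatives were the block (none, within line, letter pair), all 28 arrays, trend and robust moderation, median centring, quantile normalization, a filter on dim clusters, repeats A and B or E and F alone, and leaving out each letter and each array. The scripts were tested on simulated data.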

Additional observations from a re-analysis of the deposited data

Results flagged for a closer look

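Among 632 groups of 4 arrays over 158 named genes, 17 held an array far from the other 3, where chance gives about 1 in 20. This is fewer than that rate gives, so the arrays listed may be ordinary scatter. In shRNA-1 cells these were, with DOX, RIGI in A (3.55, the others 3.75 to 3.77), and with vehicle ELL2 in A (5.93, the others 6.22 to 6.24), POLA2 in B (8.88), HYOU1 in A (10.82), PDK1 in F (6.09, the others 6.62 to 6.69), SCD in A (11.32), RNF182 in A (8.11, the others 7.37 to 7.43) and KCTD10 in E (8.80, the others 8.11 to 8.18). In control cells they were, with DOX, EGFR in E (4.99, the others 5.64 to 5.74), TRIAP1 in B (7.13), BAK1 in F (7.79), SNRPB in F (8.35), NDUFB8 in F (10.10) and CMTM7 in E (8.09), and with vehicle OAS2 in A (2.56), P4HA1 in E (6.20) and HBB in E (5.23, the others 4.50 to 4.54).

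The DOX effect differed between shRNA-1 and shRNA-2 cells for 15 named genes by limma's test of the difference (shRNA-1 minus shRNA-2, log2). It was higher with shRNA-1 for PTBP2 (2.73), SLC1A2 (1.48), TES (1.44), RNF182 (1.40), SH3BGRL2 (1.39), PDK1 (1.29), AURKA (0.881), DPYSL3 (0.876) and RCN1 (0.869). It was lower with shRNA-1 for ZBTB45 (-1.20), APBB1 (-1.05), NEUROD2 (-1.03), NACC1 (-0.959), GIT1 (-0.947) and MBD2 (-0.609).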

How the results depend on the processing

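With 16 clusters called for the shRNA-1 response, 0 were called with no replicate block (1117 with an unadjusted p under 0.05 by limma), 111 with the block within each line, 466 with all 28 CHP134 arrays, 217 with trend and robust moderation, 46 among clusters above the negative controls, 11 with repeats A and B alone, of which 2 were among the 16, 0 with repeats E and F alone (1826 with an unadjusted p under 0.05) and 33 with the letter pair (A with B, E with F) as block, an alternative chosen after seeing the data. All 16 were shared by the fits with 111, 466, 217, 46 and 33 calls. Without 1 letter or 1 array there were 0 to 54 calls: 0 without replicate A or B, 2 without E (PTBP2 and PYGO2), 1 without F (PTBP2), 44 and 54 without the shRNA-1 DOX arrays F and E, 11 without control vehicle A, and 1 to 3 without any other array. The 867 calls for DOX in shRNA-1 cells became 189 with no replicate block, 1406 with the block within line, 1442 with all 28 arrays, 1423 with trend and robust moderation, 290 with repeats A and B alone and 0 with E and F alone, and 121 to 945 in the leave-one-out fits. The 70 calls for the difference between hairpins became 2 with no block, 174 with trend and robust moderation and 1 with A and B alone, and 1 to 104 in the leave-one-out fits. The JMJD6 response was -0.69 and called with all 28 arrays (adjusted p = 0.0245), with adjusted p = 0.590 with no block, and was -0.76 to -0.56 in the leave-one-out fits. PRRX1 (0.035) and SNAI2 (-0.26) changed sign with repeats E and F alone. The cause of these changes was not tested. Signal near background limits MYC and RIGI. The other values of single genes kept their direction, 4461 of them also their side of the threshold, while 465 lost and 168 gained a call. Of the list medians, 795 moved by less than their spread over letters and 17 by more.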
